A study of Mus musculus with 56 samples.

Results

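The messenger RNAs of Wls and of 9 Wnt ligands (Wnt4, Wnt5a, Wnt5b, Wnt6, Wnt7a, Wnt7b, Wnt10a, Wnt10b and Wnt11) were examined in mouse breast cancer cell lines. The genes were chosen by name and are 10 of the 20314 genes measured. The lines came from mammary tumors of MMTV-PyMT mice of the FVB/N strain, in which the MMTV promoter drives the PyMT oncogene in mammary epithelium, so every library carries that transgene. RNA was sequenced in 56 libraries, 2 biological replicates for each of 28 conditions.

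The 7 genotypes concern the β-catenin gene and are named fl/fl, D164A/fl, D164A/-, ΔC/fl, ΔC/-, dm/fl and dm/-. A floxed (fl) allele makes normal β-catenin and can be deleted by Cre, and fl/fl cells were taken as the control genotype. The D164A exchange stops β-catenin from binding its coactivators Bcl9 and Bcl9L, while ΔC and dm are known here by their names alone. Per the study's methods, a deleted (-) second allele was made in floxed cells with an adenovirus that carries Cre and GFP, followed by sorting for GFP. Each genotype received 100 ng/ml recombinant Wnt3a for 3 days or 2 ng/ml TGFβ for 4 days, and each treatment had its own untreated cells. The labels do not say whether replicates came from separate cultures or lines, so a p-value measures the spread between these samples, and a genotype cannot be told apart from the line that carries it.

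Wnt ligands are secreted glycoproteins that carry a lipid. Porcn attaches the lipid in the endoplasmic reticulum, and Wls, a membrane protein, takes the modified ligand to the cell surface. Ligands such as Wnt10a and Wnt10b are mostly known for the branch of the pathway that acts through β-catenin, whereas Wnt5a, Wnt5b and Wnt11 are best known for signaling without it.

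The deposited values are reads per gene scaled to the size of the library (CPM). Libraries held 22.4 to 33.7 M reads, so that 3 reads, the number set for detection, were worth 0.0917 to 0.146 CPM. Of the 8 luminal epithelial markers, Epcam, Cdh1, Krt8 and Krt18 reached at least 49.9 CPM in all libraries. By contrast Krt19 (0 to 55.0 CPM, median 0) and Elf5 (0 to 768, median 0.371) were near absent from many libraries, and Cldn7 (0.294 to 295, median 56.6) was low in some. The 7 basal epithelial markers summed to between 8.70 and 3936 CPM. The defining leukocyte markers Ptprc, Adgre1 and Cd3e stayed under 1 CPM, but Csf1r, a receptor of macrophages, reached 529.7 CPM and Cd68 79.4 CPM. The summed immune markers ranged from 292 to 533 CPM in dm/fl, from 52.9 to 217 CPM in fl/fl and from 1.27 to 88.0 CPM in the other lines, and their part in the results was not tested. One library, untreated dm/fl replicate 1 of the Wnt3a experiment, stood apart. Its correlation with its replicate was 0.911, the lowest of the 28 pairs, and its deviations followed gene GC content with a Spearman rho of 0.798, against -0.410 in that replicate. For part of the results that rest on it, values without it are given too. Other replicates of the Wnt3a experiment also split by GC content. Wnt3a-treated dm/- had the next lowest correlation, 0.942, with rho of -0.524 and 0.708 in its replicates. Untreated cells had rho of -0.457 and 0.608 in ΔC/fl and of -0.446 and 0.549 in D164A/fl.

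Promoters of Wnt11 and Wnt7a are shown because Wnt11 gave the largest rise with TGFβ and Wnt7a the widest range between conditions. The sequences are the 250 bases before a RefSeq transcription start (GRCm38.p6), 5′ to 3′ on the strand of the gene. Wnt11 has 2 listed starts, and reads per gene do not tell which was used. As a gene it is listed from chr7:98835084 on, so the last bases of its first window and all of its second lie inside it. Capitals mark CTTTGAT or its reverse complement ATCAAAG, letters bound by T-cell factors, and CAGACA or its reverse complement TGTCTG, letters bound by Smad proteins.

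Wnt11, first start, chr7:98834862-98835111, plus strand: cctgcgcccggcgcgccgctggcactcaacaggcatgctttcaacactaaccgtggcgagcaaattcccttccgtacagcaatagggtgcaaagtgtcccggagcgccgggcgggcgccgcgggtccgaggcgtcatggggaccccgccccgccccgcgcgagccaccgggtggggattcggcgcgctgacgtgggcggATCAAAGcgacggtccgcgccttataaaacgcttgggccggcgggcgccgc

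Wnt11, second start, chr7:98838595-98838844, plus strand: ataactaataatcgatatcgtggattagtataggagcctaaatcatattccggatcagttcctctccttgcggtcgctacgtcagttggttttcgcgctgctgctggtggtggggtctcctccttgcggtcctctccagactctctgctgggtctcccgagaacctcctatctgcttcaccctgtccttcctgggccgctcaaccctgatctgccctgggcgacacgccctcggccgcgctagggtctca

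Wnt7a, chr6:91411354-91411603, minus strand: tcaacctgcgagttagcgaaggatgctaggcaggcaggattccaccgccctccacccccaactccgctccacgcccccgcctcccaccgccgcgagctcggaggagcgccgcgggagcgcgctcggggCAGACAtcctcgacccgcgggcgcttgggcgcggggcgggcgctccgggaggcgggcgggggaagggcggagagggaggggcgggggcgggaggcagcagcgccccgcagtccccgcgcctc

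Of 32851 promoter windows of this length, 3.21% held CTTTGAT on either strand, as the first Wnt11 window and 1 of the 3 Wnt5b windows did once, and 17.1% held CAGACA, as the Wnt7a window did once. The palindrome GTCTAGAC, found in 0.167% of windows, was in none of the 10 windows of the 7 genes that have one. A match describes letters and says nothing of binding. Windows of Wnt5a, Wnt7b and Wnt10a were not analysed here.

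The lines shared Wls and Wnt7b and differed in the other ligands. A gene was called expressed in a condition where both replicates reached 1 CPM. Wls was expressed in 28 of 28 conditions, between 27.8 and 1203 CPM, and Wnt7b likewise, between 81.5 and 1941 CPM. Wnt5b was expressed in 23 conditions, Wnt7a in 22, Wnt10a in 18, Wnt4 in 16, and Wnt5a and Wnt11 in 10 each. Wnt6 and Wnt10b, with at most 0.456 and 0.218 CPM, were expressed in none, and had 3 reads or more in 8 and 2 libraries. Wnt6 (chr1:74754342-74785322) and Wnt10a (chr1:74792019-74804176, GRCm38) are neighbours on chromosome 1, 6.70 kb apart. A condition expressed between 3 and 8 of the 10 genes. Of the 10 other Wnt genes, Wnt9a measured 2.43 to 88.6 CPM, and the rest, Wnt1, Wnt2, Wnt3 and Wnt3a among them, stayed at or below 0.425 CPM.

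**Figure D1:**
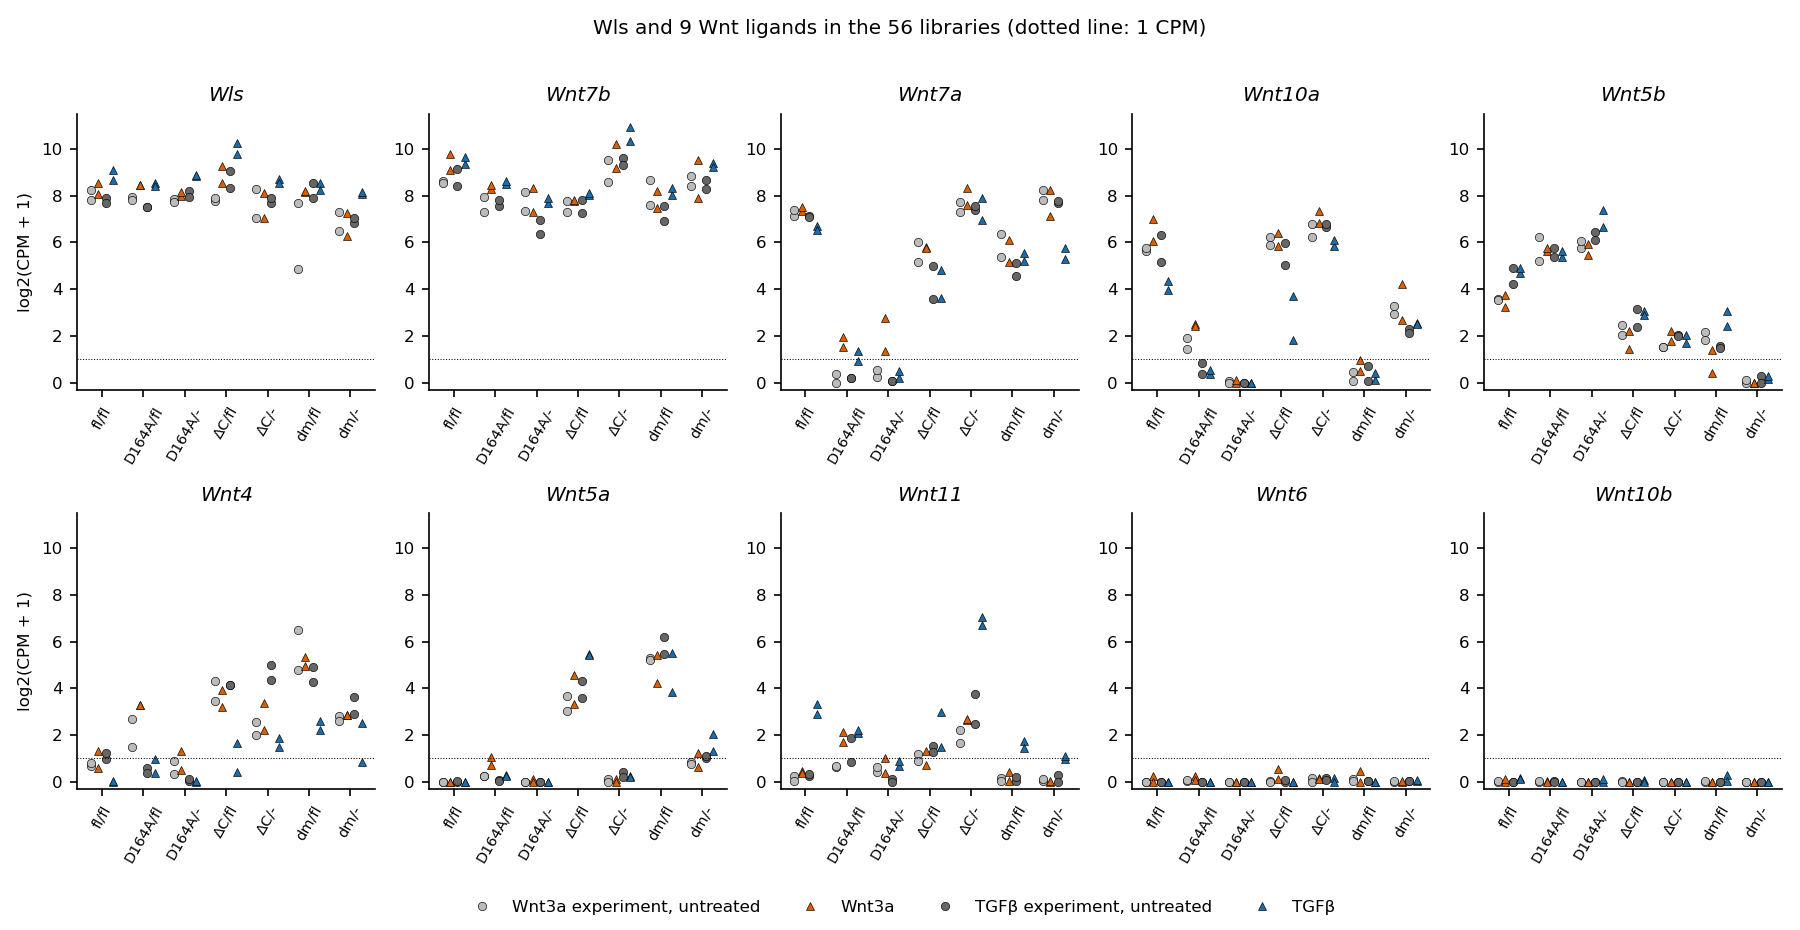
Level of each gene in each of the 56 libraries, as log2(CPM + 1), by β-catenin genotype; circles are untreated cells (light, Wnt3a experiment; dark, TGFβ experiment), triangles are treated cells (orange, Wnt3a; blue, TGFβ), and the dotted line marks 1 CPM. Wls and Wnt7b lie above 1 CPM in all libraries, Wnt7a is near 0 without Wnt3a or TGFβ in both D164A genotypes, Wnt5a stands out in ΔC/fl and dm/fl, and Wnt11 is highest in ΔC/- cells with TGFβ.

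Levels of different genes were compared per kilobase (kb) of exon. On this scale Wnt7b was the leading ligand of untreated cells in each of the 7 genotypes, with medians of 4 libraries from 30.5 CPM per kb in D164A/- to 147 in ΔC/-. The ligand in second place differed between lines. It was Wnt7a in fl/fl (43.8 CPM per kb), ΔC/- (55.8), dm/fl (11.6) and dm/- (69.4), Wnt5b in D164A/fl (17.8) and D164A/- (25.2), and Wnt10a in ΔC/fl (24.3). In D164A/- the next ligand, Wnt11, had 0.0558 CPM per kb. The ranges of Wnt7b and Wnt5b were apart in D164A/fl (33.8 to 52.7 against 13.6 to 27.8 CPM per kb) and overlapped in D164A/- (17.7 to 61.9 against 19.9 to 32.8).

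**Figure D2:**
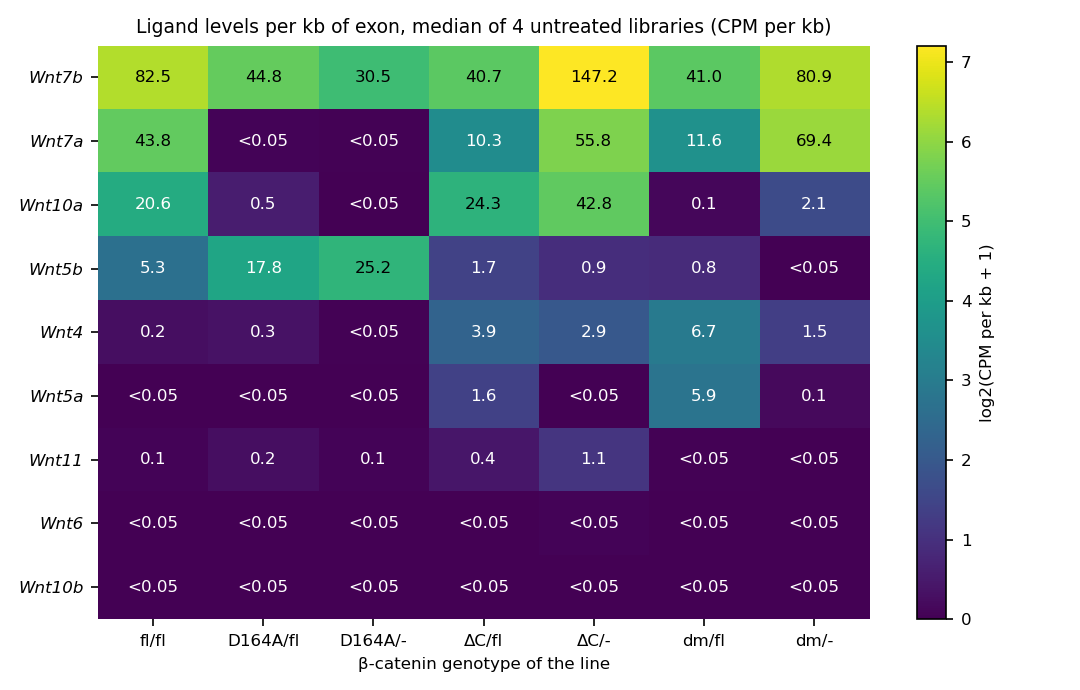
Median level of the 9 ligands in the 4 untreated libraries of each genotype, in CPM per kb of exon, with color on a log2(CPM per kb + 1) scale. Wnt7b leads in every genotype, and the next ligand is Wnt7a in 4 genotypes, Wnt5b in both D164A genotypes and Wnt10a in ΔC/fl.

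Untreated mutant lines were compared with fl/fl in each experiment, on log2(CPM + 1) values with limma. Here and below, a call needed a Benjamini-Hochberg adjusted p no higher than 0.05 together with a log2 difference of 1 or more in size. Adding 1 CPM understates the change of low genes, so log2 differences that involve levels near 0 are no folds. Of the 10 genes 8 passed the filter on low values, and 49 of their 96 gene-by-genotype pairs were called, 21 higher and 28 lower, beside 18.3% of all pairs of the 13754 genes tested (9.75% higher and 8.52% lower). Of 48 pairs measured in both experiments, 21 were called in both, each time in the same direction, and 7 in one.

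Wnt7a, a ligand of epithelia, divided the lines most sharply. In untreated fl/fl cells it measured 138 and 164.1 CPM in the Wnt3a experiment and 139.9 and 136 CPM in the TGFβ experiment. In D164A/fl it was 0 and 0.288 CPM, then 0.142 and 0.161 CPM, and in D164A/- 0.182 and 0.464 CPM, then 0.0386 and 0.0381 CPM. No value of a D164A line came near those of fl/fl. The log2 differences in the Wnt3a and the TGFβ experiment were -7.06 and -6.92 in D164A/fl and -6.85 and -7.07 in D164A/-. Wnt7a was also lower in ΔC/fl (log2 differences -1.67 and -2.83) and dm/fl (-1.37 and -2.29). Without the library that stood apart the dm/fl difference in the Wnt3a experiment was -1.88. Its levels in ΔC/- (156 to 209 CPM) and dm/- (202 to 306 CPM) were not called different from fl/fl.

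Wnt10a, a ligand of the β-catenin branch, followed part of that order. It measured 48.4 and 53.1 CPM, then 34.3 and 78.3 CPM, in untreated fl/fl cells. D164A/- held 0.0365 and 0 CPM, then 0 and 0 CPM, and D164A/fl 1.69 and 2.78 CPM, then 0.283 and 0.804 CPM. In dm/fl it was 0.363 and 0.0615 CPM, then 0.0621 and 0.637 CPM. None of these lines overlapped with fl/fl, and their log2 differences from it lay between -5.73 and -4.02. In dm/- the level was 3.36 to 8.58 CPM, lower than in fl/fl in both experiments (log2 differences -2.61 and -3.52). ΔC/fl (31.4 to 74.1 CPM) overlapped with fl/fl, and ΔC/- (75.0 to 109.8 CPM) was not called different from it.

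Wnt5b, a close relative of Wnt5a, ran the other way. Its untreated level was 52.8 to 86.9 CPM in D164A/- and 36.0 to 73.7 CPM in D164A/fl, which overlapped with each other, against 10.7 to 29.1 CPM in fl/fl. Next came ΔC/fl with 3.11 to 7.92 CPM, ΔC/- with 1.90 to 3.11 CPM and dm/fl with 1.82 to 3.45 CPM, and dm/- did not exceed 0.214 CPM. All 12 comparisons with fl/fl were called, 4 of them higher (both D164A genotypes, by 1.03 to 2.34 on the log2 scale) and 8 lower (-4.42 to -1.30). Over the 28 condition means of log2(CPM + 1), Wnt5b and Wnt7a had a Pearson r of -0.80, a description of conditions that share lines.

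Wnt4 and Wnt5a marked the other mutant lines. Wnt4, which drives side branching of mammary ducts downstream of progesterone, was higher than in fl/fl in both experiments in ΔC/fl, ΔC/-, dm/fl and dm/-, by 1.56 to 4.93 on the log2 scale. In D164A/fl it was higher in the Wnt3a experiment (1.36). Untreated fl/fl cells held 0.599 to 1.38 CPM of Wnt4 and dm/fl cells 18.2 to 90.7 CPM, the highest value coming from the library that stood apart. Without that library the dm/fl difference in the Wnt3a experiment was 4.07 and still called. Wnt5a was close to absent from fl/fl, with 0 and 0 CPM, then 0 and 0.0374 CPM. It measured 7.13 and 11.6 CPM, then 18.8 and 11.2 CPM, in ΔC/fl, and 38.8 and 35.7 CPM, then 73.6 and 44.0 CPM, in dm/fl. Both lines were called higher in both experiments, and neither overlapped with another genotype. Their log2 differences were 3.34 and 3.93 in ΔC/fl and 5.26 and 5.83 in dm/fl.

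Some stromal and mesenchymal markers, picked after their values were seen, were high in the lines with Wnt5a. Untreated Vim, the filament protein vimentin, measured 1046 to 2838 CPM in ΔC/fl and 1182 to 3536 CPM in dm/fl, against at most 548 CPM in the other genotypes. Zeb1, a repressor of epithelial genes, measured 37.4 to 76.4 and 23.7 to 56.9 CPM against at most 10.6 CPM, and Pdgfrb, a receptor of stromal cells, 63.7 to 494 and 45.7 to 227 CPM against at most 5.71 CPM. The summed level of all 7 mesenchymal markers, Vim and Zeb1 included, did not set dm/fl apart: over all 8 libraries its median was 4183 CPM in dm/fl and 8780 CPM in ΔC/fl, against 5084 CPM in fl/fl and 5891 CPM in ΔC/-. That sum includes treated libraries and a member of far higher level, Fn1. Over all libraries Fn1 had a median of 3402 CPM, against 237 CPM for Vim and 4.09 CPM for Zeb1. The other mesenchymal markers are not given here line by line. The summed level of the 9 fibroblast markers ranged from 79.2 to 1545 CPM in ΔC/fl, from 75.6 to 863 CPM in dm/fl and from 5.84 to 638 CPM elsewhere, and Lum and Thy1 among them were under 1 CPM in all libraries. In bulk samples more cells of a type and more RNA per cell cannot be told apart. The part of these markers in the Wnt5a result was not tested.

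By their pattern over the 28 conditions, the genes most like Wnt7a were Hexa (0.95), Cxcl16 (0.95), Ikbke (0.95), with Pearson r of condition means in parentheses. Those most like Wnt10a were Col4a6 (0.91), Mapk12 (0.89), Crip1 (0.89), and those most like Wnt5b were Stox2 (0.95), Epb41l4a (0.94), Car9 (0.93). For Wnt11 they were Xirp1 (0.91), Tmem119 (0.87), Fosb (0.87), of which Xirp1 did not exceed 3.48 CPM. The conditions share 7 genotypes, so these values are a description.

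Wnt11, Wnt7b and Wls had 4, 3 and 1 of 12 untreated comparisons called, where Wnt5a had 4 and the other genes 8 or more. Wnt11 was higher in ΔC/- in both experiments, at 3.69 and 2.15 CPM, then 12.4 and 4.63 CPM, against 0.189 and 0.0383 CPM, then 0.201 and 0.262 CPM, in fl/fl. The log2 differences were 1.79 and 2.82, and in the TGFβ experiment D164A/fl (1.06) and ΔC/fl (1.09) were called too. Wnt7b was lower than in fl/fl in the TGFβ experiment in D164A/- (-2.13), ΔC/fl (-1.25) and dm/fl (-1.55). For Wls, neighbours in the order of medians overlapped from ΔC/fl (279 CPM) through D164A/- (237), fl/fl (232), ΔC/- (222) and dm/fl (220.4) to D164A/fl (203), and dm/- came last, at 89.2 to 155 CPM, apart from D164A/fl. The dm/- range still overlapped with those of ΔC/- (131 to 313 CPM) and dm/fl (27.8 to 369 CPM). The Wls call, lower in dm/fl in the Wnt3a experiment (-1.77), rested on the library that stood apart, with 27.8 CPM against 206 CPM in its replicate. Without that library the difference was -0.35 and not called.

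For these genes, the called differences between lines with a deleted second allele and their floxed counterparts lay mainly in the ΔC and dm lines. In untreated cells 20 of 48 pairs were called, 10 in each direction, beside 12.1% of all pairs (5.3% higher and 6.78% lower), and 7 of 24 pairs were called in both experiments in the same direction. Wnt5a was 9.36 ± 3.15 CPM in ΔC/fl and 0.0414 ± 0.0586 CPM in ΔC/- in the Wnt3a experiment (mean ± SD, n = 2). In the TGFβ experiment it was 58.8 ± 20.9 CPM in dm/fl and 1.09 ± 0.112 CPM in dm/-. Its log2 differences in the ΔC and dm lines lay between -4.80 and -3.28, all 4 of them called.

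Wnt7a was higher in the deleted line in the same 4 comparisons, by 1.93 to 3.18 on the log2 scale. Its dm difference in the Wnt3a experiment was 2.66 without the library that stood apart. Wnt10a was higher in dm/- than in dm/fl in both experiments (log2 differences 2.82 and 1.80), and Wnt5b lower (-1.94 and -1.38). Wnt7b was higher in ΔC/- than in ΔC/fl (1.499 and 1.93). In 1 experiment each, Wnt7b was higher in dm/- (TGFβ experiment, 1.23), Wnt11 higher in ΔC/- (TGFβ experiment, 1.72) and Wnt4 lower in ΔC/- (Wnt3a experiment, -1.60). Wnt4 was also lower in dm/- in the Wnt3a experiment (-2.95, or -2.09 and still called without the library that stood apart). In the D164A lines 2 of 16 pairs were called, Wnt10a in the Wnt3a experiment (-1.65) and Wnt11 in the TGFβ experiment (-1.31). Untreated medians of Wnt4, Wnt5a, Wnt7a, Wnt10a and Wnt11 did not exceed 1.25 CPM in either D164A line, which leaves little room for a call with 1 CPM added. Over all 13754 genes, 441 and 2265 were called between the D164A lines in the Wnt3a and the TGFβ experiment. The counts were 1123 and 1652 for ΔC and 2276 and 2210 for dm. Marker lists moved too. Of the mesenchymal markers 16 of 42 pairs were lower in deleted lines and 1 higher, beside 6.78% and 5.3% of all pairs. Fibroblast markers were lower in 19 of 42 pairs and higher in 0, and basal epithelial markers lower in 13 of 36 and higher in 3. Luminal epithelial markers were lower in 3 of 48 pairs and higher in 3. The part of these markers in the ligand values was not tested, and the deletion, the infection and the sorting cannot be told apart.

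**Figure D3:**
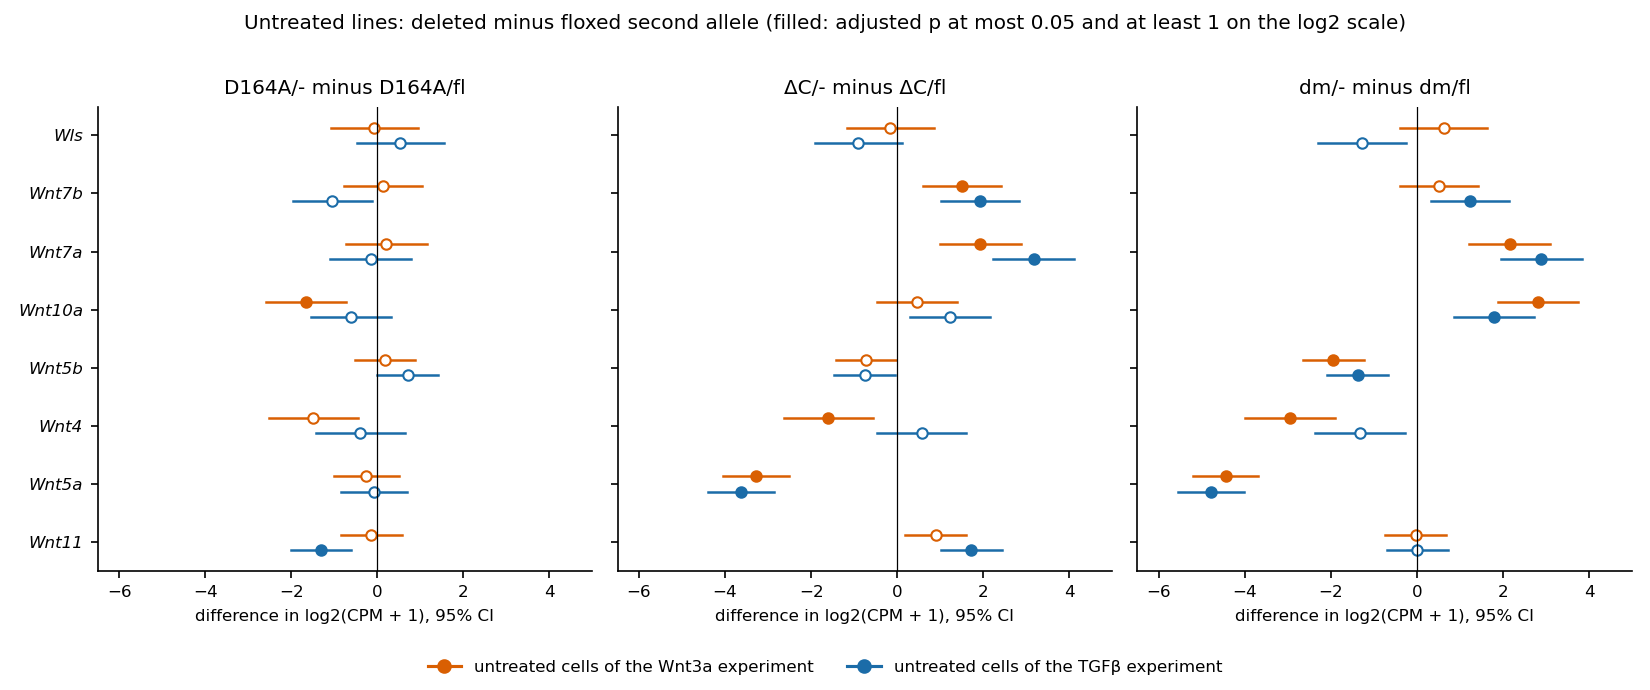
Difference in log2(CPM + 1) between untreated cells with a deleted and with a floxed second allele, with 95% confidence intervals, for the D164A, ΔC and dm lines in the Wnt3a (orange) and TGFβ (blue) experiments; filled points were called. Wnt5a lies between -4.80 and -3.28 and Wnt7a between 1.93 and 3.18 in the ΔC and dm panels, while the D164A panel has 2 filled points.

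Untreated cells of the TGFβ and the Wnt3a experiment differed in 3 of 56 pairs, beside 2.31% of all pairs. Wnt4 was lower in the TGFβ experiment in D164A/fl (0.495 and 0.289 against 1.79 and 5.51 CPM, log2 difference -1.62) and higher in ΔC/- (31.4 and 19.7 against 4.97 and 3.02 CPM, 2.40). Wls was higher in dm/fl (1.93), but without the library that stood apart the difference was 0.51 and not called.

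Wnt3a raised Axin2, a direct target of β-catenin, in 6 of 7 genotypes, by 2.84 in ΔC/- to 5.98 in D164A/fl on the log2 scale. In dm/-, Axin2 did not exceed 0.0791 CPM with or without Wnt3a, and limma called 0 of 13754 genes (0.0%), while 29 had p below 0.05 before adjustment. The Wnt3a-treated dm/- replicates had the next to lowest correlation of all replicate pairs, 0.942. The ligands and Wls were called in 2 of 56 pairs, both of them higher in D164A/fl, beside 0.862% of all pairs. D164A/fl had the largest share of called genes, 4.15%, and the next line, D164A/-, 0.654%.

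In D164A/fl, Wnt7a measured 0 and 0.288 CPM untreated and 1.90 and 2.91 CPM with Wnt3a, a log2 difference of 1.57 ± 0.46 (SE, adjusted p = 0.0382, limma). Wnt11 measured 0.540 and 0.613 CPM untreated and 3.34 and 2.24 CPM with Wnt3a (1.25 ± 0.35, adjusted p = 0.025). The groups did not overlap, yet both genes stayed under 4 CPM, and either call was lost without any 1 of the 4 libraries compared. The Wnt11 call was also lost in edgeR. In D164A/-, Wnt7a went from 0.182 and 0.464 CPM to 1.56 and 5.69 CPM (1.65 ± 0.46, adjusted p = 0.104), which limma did not call. It was called by edgeR (3.46, adjusted p = 0.0171) and by limma with 0.1 CPM added (2.96, adjusted p = 0.00585).

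Wnt10a had a higher mean with Wnt3a in 7 of 7 genotypes and Wnt7b in 6, with no line called. Wnt7b measured 394 and 367 CPM in untreated and 873 and 540.3 CPM in treated fl/fl cells, a log2 difference of 0.85 with a 95% interval of -0.06 to 1.76. With a GC trend removed it was 0.25, while Wls in fl/fl went from 0.27 to 1.14, neither of them called. Wls measured 215 and 237 CPM untreated and 372 and 625 CPM treated in ΔC/fl (1.09, interval 0.07 to 2.11). In dm/fl the Wls difference of 1.92 (adjusted p = 0.0694) became 0.49 without the library that stood apart.

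Averaged over the 7 genotypes, a comparison added after the values of each line were known, 0 of the 8 genes were called with Wnt3a by limma, beside 0.494% of all genes. Of the 8 genes, 4 had an unadjusted limma p under 0.05, beside 1476 of all 13754 genes. The largest mean difference was that of Wls (0.56 ± 0.19, adjusted p = 0.12). By edgeR 1 gene was called, Wnt7a (1.12). Its edgeR differences were 4.09 in D164A/fl and 3.46 in D164A/-, where it was near 0 CPM untreated, and between -0.28 and 0.55 in the other lines. Both Wnt3a replicates lay above both untreated ones in 20 of 56 pairs and below them in 1, beside 12.6% and 12.3% of all pairs. Responses to Wnt3a also followed gene GC content, with a Spearman rho across genes from -0.752 in dm/fl to 0.768 in ΔC/-.

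The difference between the Wnt3a response of a mutant line and that of fl/fl was called in 0 of 48 pairs by limma, beside 0.439% of all pairs, and in 0 by edgeR. An unadjusted limma p under 0.05 was found in 4 of the 48 pairs. Over all 13754 genes, such a p was found in 148 (ΔC/-) to 3826 (dm/fl) genes per line. For Wnt7a the response in D164A/fl exceeded that in fl/fl by 1.39 (interval 0.06 to 2.72), adjusted p = 0.414.

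**Figure D4:**
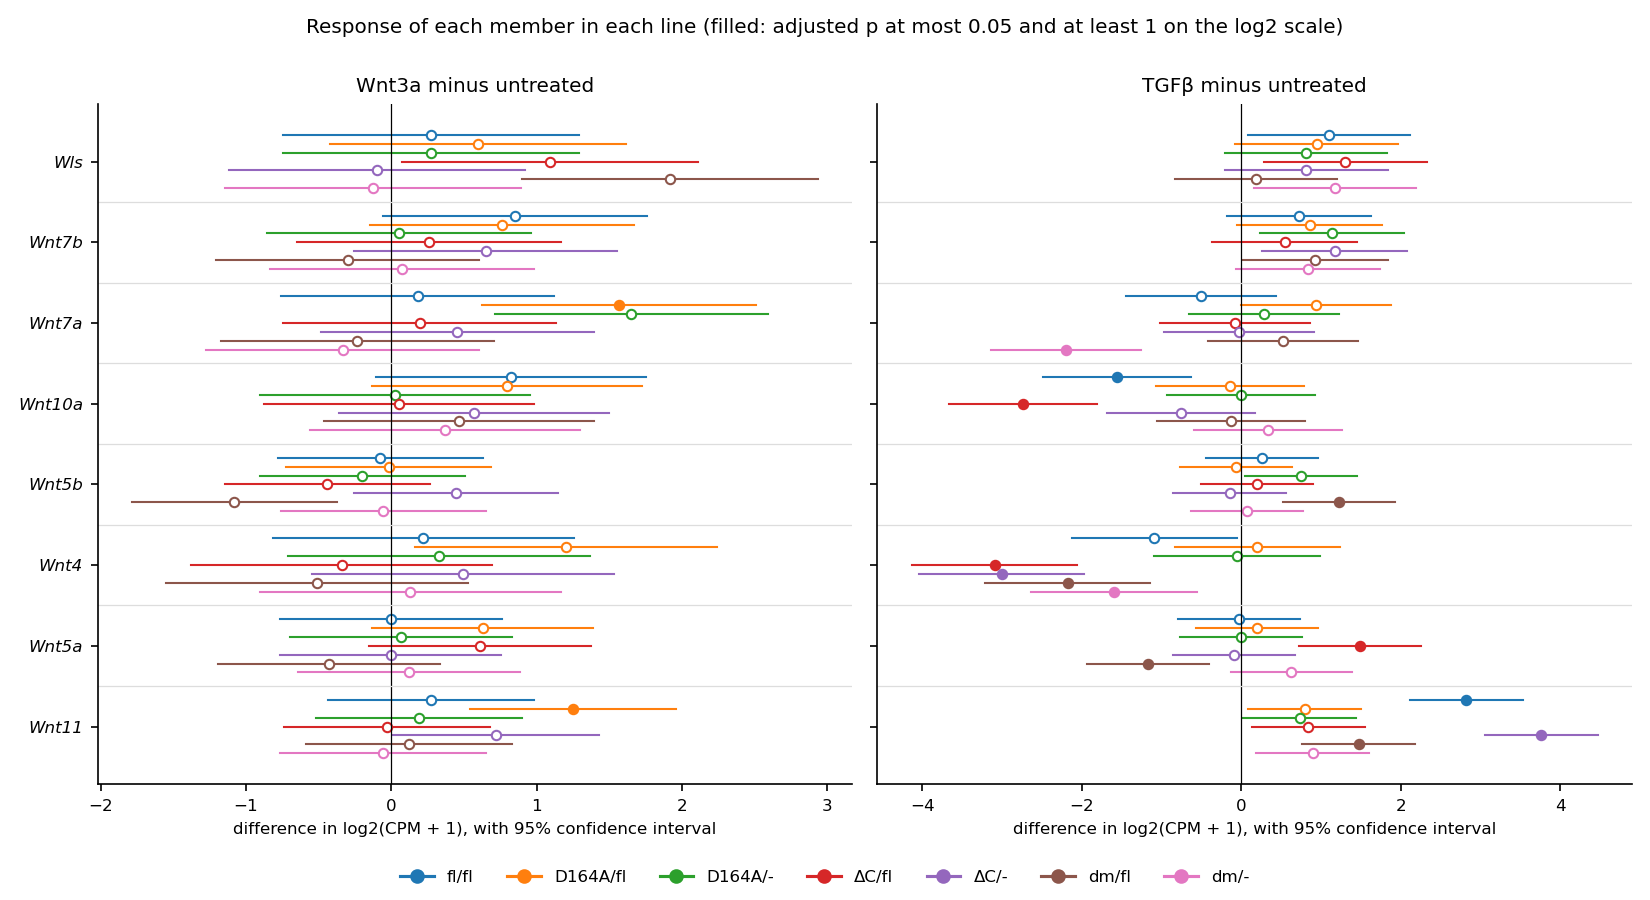
Response of each of the 8 tested genes to Wnt3a (left) and TGFβ (right) in each genotype, as the difference in log2(CPM + 1) between treated and untreated cells with its 95% confidence interval; filled points were called. With TGFβ, Wnt11 lies above 0 in 7 genotypes and Wls and Wnt7b lie between 0.18 and 1.31, while the Wnt3a panel has 2 filled points.

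TGFβ changed more of these genes. Smad7, a direct Smad target and the feedback inhibitor of the pathway, rose in 6 of 7 genotypes. Of the 56 pairs of ligands and Wls 13 were called, 5 higher and 8 lower, beside 6.35% of all pairs (3.11% higher and 3.24% lower). They were 4 in dm/fl, 3 in ΔC/fl, 2 each in fl/fl, ΔC/- and dm/-, and 0 in either D164A line. Over all 13754 genes, the counts were 1420 in dm/fl, 1064 in ΔC/fl, 901 in ΔC/- and 860 in fl/fl. In dm/- the count was 842, in D164A/- 559 and in D164A/fl 465. The absence of calls in the D164A lines depended on the settings. By edgeR, which also called 13 pairs, Wnt7a in D164A/fl (2.91, adjusted p = 0.0335) and Wnt11 in D164A/- (4.05, adjusted p = 0.0296) were called. Limma with 0.1 CPM added called both too (adjusted p = 0.0143 and 0.0078). With 1 CPM kept, limma called Wls in D164A/fl with a GC trend removed (1.22, adjusted p = 0.0395). With a block for same-numbered replicates it called Wnt7b in D164A/- (1.14, adjusted p = 0.0311).

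Wnt11, a ligand known for cell movements in the embryo, rose in fl/fl, ΔC/- and dm/fl with 1 CPM added. It measured 0.201 and 0.262 CPM in untreated fl/fl cells and 6.52 and 9.12 CPM with TGFβ, a log2 difference of 2.82 ± 0.35 (SE, adjusted p = 4.34e-07, limma). In ΔC/- it measured 12.4 and 4.63 CPM untreated and 103 and 132 CPM with TGFβ, its highest level in the series (3.76 ± 0.35, adjusted p = 1.97e-09). In dm/fl it went from 0.0311 and 0.159 CPM to 2.37 and 1.74 CPM (1.47 ± 0.35, adjusted p = 0.00268), a call lost with a GC trend removed, where the difference was 1.69 (adjusted p = 0.0653).

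Treated and untreated replicates of Wnt11 were apart in 6 of 7 genotypes and overlapped in ΔC/fl, with 1.88 and 1.40 CPM against 6.95 and 1.79 CPM. TGFβ-treated cells held 3.30 and 3.61 CPM in D164A/fl, 0.617 and 0.843 CPM in D164A/- and 0.985 and 1.12 CPM in dm/-. The differences in D164A/- and dm/- were called by edgeR (4.05 and 3.19, adjusted p = 0.0296 and 0.0237) and by limma with 0.1 CPM added (2.63 and 2.70). Averaged over genotypes, a comparison added after the lines' values were known, Wnt11 rose by 1.62 ± 0.13 (adjusted p = 1.29e-11) and was 1 of 2 genes called, beside 4.88% of all genes.

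On the log2(CPM + 1) scale the Wnt11 response was smaller than that of fl/fl in 4 lines, the 4 called of 48 pairs, beside 3.27% of all pairs. The differences were -2.03 in D164A/fl, -2.09 in D164A/-, -1.98 in ΔC/fl and -1.93 in dm/-, each ± 0.49 (SE), with adjusted p-values from 0.00708 to 0.0199. All 4 share the fl/fl libraries, and 0 were called without TGFβ-treated fl/fl replicate 2. With a GC trend removed 0 were called, although the differences stayed between -2.32 and -1.77. In edgeR, which adds no 1 CPM, the difference of D164A/- was -1.0 and 1 of the 4, that of D164A/fl (-4.12), was kept. ΔC/- responded more than ΔC/fl, by 2.92 ± 0.49 (adjusted p = 0.000259), a call kept without each library. That call was lost in edgeR (2.36, adjusted p = 0.334), with 0.1 CPM added and with only the samples compared.

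With 1 CPM added, Wnt4 was called lower with TGFβ in the 4 lines that expressed it most. In ΔC/fl it went from 16.5 and 16.4 CPM to 0.340 and 2.13 CPM (-3.09 ± 0.51, adjusted p = 4.95e-05). In ΔC/- it went from 31.4 and 19.7 CPM to 2.70 and 1.82 CPM (log2 difference -3.005), and in dm/fl from 18.2 and 29.5 CPM to 3.71 and 5.09 CPM (-2.18), the latter lost without untreated replicate 2. The decrease in dm/-, from 11.4 and 6.58 CPM to 4.73 and 0.793 CPM (-1.60 ± 0.51, adjusted p = 0.0475), lay at the edge of the threshold and was lost when any 1 of 35 libraries was left out.

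Treated replicates of Wnt4 lay below untreated ones in 6 of 7 genotypes, among them fl/fl, where 0.966 and 1.38 CPM stood against 0 and 0.0368 CPM. The fl/fl decrease was called by edgeR (-5.58, adjusted p = 0.00454) and by limma with 0.1 CPM added (-3.43, adjusted p = 0.00166). Neither of these called the decrease in dm/- (adjusted p = 0.194 and 0.0836). The mean over genotypes was -1.54 ± 0.19 (adjusted p = 1.14e-07). In ΔC/- the untreated cells of the TGFβ experiment held 6.40 times the Wnt4 of those of the Wnt3a experiment, and the treated level lay below theirs too (4.97 and 3.02 CPM).

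Wnt10a fell in fl/fl and ΔC/fl. It went from 34.3 and 78.3 CPM to 14.7 and 19.5 CPM in fl/fl (-1.56 ± 0.46, adjusted p = 0.0274) and from 31.4 and 62.2 CPM to 2.53 and 12.1 CPM in ΔC/fl (-2.74 ± 0.46, adjusted p = 5.79e-05). ΔC/-, which held the most, went from 101 and 109.8 CPM to 56.4 and 68.1 CPM without a call (-0.76). The fl/fl call was lost without either treated replicate or untreated replicate 2, and in edgeR, while the ΔC/fl call was kept without each library.

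Wnt5a, Wnt5b and Wnt7a were called in single lines. Wnt5a rose in ΔC/fl, from 18.8 and 11.2 CPM to 43.5 and 41.5 CPM (1.49 ± 0.37, adjusted p = 0.00665). In dm/fl it was called lower, from 73.6 and 44.0 CPM to 44.9 and 13.4 CPM (-1.17 ± 0.37, adjusted p = 0.0326), although the replicates overlapped. Both Wnt5a calls were lost without either of 2 libraries, untreated replicate 2 and treated replicate 1 in ΔC/fl, untreated replicate 1 and treated replicate 2 in dm/fl. Neither was called by edgeR (adjusted p = 0.18 and 0.435), and the dm/fl difference was not called with 0.1 CPM added (adjusted p = 0.134). Wnt5b rose in dm/fl from 1.93 and 1.82 CPM to 4.33 and 7.43 CPM (1.22), a call lost without any of 3 of these 4 libraries. Wnt7a fell in dm/-, from 202 and 219 CPM to 53.4 and 37.9 CPM (-2.20 ± 0.46, adjusted p = 0.00141), and was kept without each library.

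Between dm/- and dm/fl the TGFβ response of Wnt7a differed by -2.73 ± 0.65 (SE, adjusted p = 0.00535, limma) and that of Wnt5a by 1.80 ± 0.53 (adjusted p = 0.0283). The Wnt5a difference was lost without any 1 of 5 of the 8 libraries compared, in edgeR, with 0.1 CPM added and with only the samples compared. With the Wnt11 difference in the ΔC lines these were the 3 called of 48 pairs, beside 2.14% of all pairs.

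Wls and Wnt7b had higher means with TGFβ in all 7 lines. Wls went from 236 and 203 CPM to 539.7 and 410.0 CPM in fl/fl, from 184 and 183 CPM to 369.7 and 338 CPM in D164A/fl, and from 533 and 320.4 CPM to 1203 and 871 CPM in ΔC/fl. Both treated replicates lay above both untreated ones in 6 of 7 genotypes, dm/fl being the exception. The ratio of means ran from 1.11 in dm/fl to 2.43 in ΔC/fl. No line was called (adjusted p from 0.105 to 0.951), and the mean over genotypes (0.91 ± 0.19, adjusted p = 0.000332) fell short of 1 on the log2 scale. With a GC trend removed, Wls was called in fl/fl, D164A/fl, ΔC/fl and dm/-, and Wnt7b in dm/fl.

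Wnt7b was apart between treated and untreated replicates in 7 of 7 genotypes, with ratios of means from 1.43 to 2.29 and a mean log2 difference of 0.89 ± 0.17 (SE, adjusted p = 0.000105, limma). It reached 1290 and 1941 CPM in TGFβ-treated ΔC/- cells, from 781 and 632 CPM. No line was called. Over all 56 pairs treated replicates lay above untreated ones in 28 and below in 11, beside 28.7% and 28.5% of all pairs.

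Of 14 other genes of Wnt secretion and extracellular Wnt control 11 were tested, and with TGFβ 1 of 77 pairs was called higher and 6 lower, beside 3.11% and 3.24% of all pairs. Porcn rose in D164A/- from a mean of 2.30 to 16.3 CPM. Notum, an enzyme that strips the lipid from Wnt ligands, fell in fl/fl, ΔC/fl and dm/fl, in ΔC/fl from 143 to 5.13 CPM, and Sfrp1, a secreted Wnt antagonist, fell in fl/fl, ΔC/- and dm/fl. With Wnt3a 3 of 77 pairs were called higher and 1 lower, beside 0.862% of all pairs in either direction, and Notum rose in D164A/fl from 18.8 to 177 CPM. Wnt9a rose with TGFβ in D164A/- (from 2.68 to 29.4 CPM) and dm/fl (from 8.59 to 42.1 CPM). Among receptors linked to Wnt5a, with 4 of 5 tested, 7 of 28 pairs were higher with TGFβ and 1 lower, beside the same 3.11% and 3.24%, and Mcam rose in 6 of 7 genotypes.

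Mesenchymal markers were called higher with TGFβ in 15 of 49 pairs and lower in 0, beside 3.11% and 3.24% of all pairs. They were 4 of 7 in fl/fl and 0 of 7 in dm/fl, the line in which 4 of the ligands were called, and their part in the ligand values was not tested.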

How the data were processed

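RNA of 56 libraries was sequenced as stranded poly(A) RNA. Per the labels and the study's methods, the authors aligned reads to mm10 with STAR, counted them on RefSeq genes with QuasR and deposited 1 signal value per gene and library, which they call CPM: counts divided by the library size as scaled by edgeR. All values (100%) were whole reads within 0.001 reads, so reads were recovered. The members and lists were chosen with earlier results of these data known.

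Groups were taken from the labels. The 13754 of 20314 genes that reached 1 CPM in 2 or more libraries were fitted as log2(CPM + 1) with limma 3.58.1 in R 4.3.3, with 1 coefficient per condition over all libraries, a mean-variance trend and Benjamini-Hochberg adjustment per contrast. Alternatives were another pseudocount (0.1), no filter, another scaling, a GC trend removed, a replicate block, the compared samples alone, leaving out each library, and edgeR 4.0.16 (quasi-likelihood) on the recovered reads, which called 13 of the 56 TGFβ pairs. The mean over genotypes and the crossed pairing were added after seeing the data. Scripts were tested on simulated data. All members were named, with up to 3 called genes per list that had the largest differences and no overlap of replicates, and 3 genes most alike for the 4 members of widest range. Vim, Zeb1, Pdgfrb and the epithelial and immune markers were named after their values were seen. Exon lengths came from GENCODE and promoters from RefSeq. Counting error and replicate number limit the precision.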

Additional observations from a re-analysis of the deposited data

Results flagged for a closer look

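In 7 results the response to TGFβ differed between genotypes by a test of the difference itself (limma, adjusted over all genes). The Wnt11 response differed from that of fl/fl by -2.03 in D164A/fl, by -2.09 in D164A/-, by -1.98 in ΔC/fl and by -1.93 in dm/-, on the log2(CPM + 1) scale, and these 4 share the fl/fl libraries. It was larger in ΔC/- than in ΔC/fl by 2.92. In dm/- the Wnt5a response was above that of dm/fl by 1.80, and the Wnt7a response differed from that of dm/fl by -2.73. The Wnt7a difference was called in each of the alternatives run and without each library. For Wnt11 against fl/fl, 0 of the 4 were called with a GC trend removed or without TGFβ-treated fl/fl replicate 2, and edgeR kept that of D164A/fl alone. EdgeR called neither the Wnt11 difference of the ΔC lines nor the Wnt5a difference of the dm lines.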

How the results depend on the processing

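Of 96 called values, 46 stayed called under every alternative setting run, 59 without each library in turn and 41 under both, and 0 changed sign. The Wnt11 rise with TGFβ in fl/fl and ΔC/- and the Wnt4 decrease in ΔC/- were among those kept throughout. The 155 expressed pairs became 168 at 0.5 CPM and 142 at 2 CPM.

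With the GC trend removed, calls went from 2 to 1 for the Wnt3a response, from 4 to 0 for the TGFβ response difference from fl/fl and from 3 to 1 between untreated cells of the experiments. With only the samples compared, they were 0 for the Wnt3a response, 7 for the TGFβ response, 7 for the TGFβ response difference from fl/fl, 1 for the response difference of deleted against floxed lines, 10 for untreated deleted against floxed lines and 0 between experiments. With edgeR they were 2 for the TGFβ response difference from fl/fl, 1 for that of deleted against floxed lines and 1 between experiments. With a pseudocount of 0.1 they were 1 for the Wnt3a response difference from fl/fl and 1 for the response difference of deleted against floxed lines. The cause was not tested.

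With the replicate block, calls were 4 for the Wnt3a response, 1 for the Wnt3a and 7 for the TGFβ response difference from fl/fl and 5 for that of deleted against floxed lines. With the block and the GC trend removed they were 7, 4, 10 and 6, and 21 for the TGFβ response. Same-numbered libraries had correlated deviations, of 0.334 to 0.932, in 12 of 14 pairs, but not in untreated and treated dm/fl of the Wnt3a experiment (-0.0678), which holds the library that stood apart, or ΔC/- of the TGFβ experiment (-0.197), so not every pair met the limit of 0.1 set for a pairing. The block added calls of Wls with Wnt3a in dm/fl (adjusted p = 0.00985) and of Wnt7a with Wnt3a in D164A/- (0.0323), and with TGFβ of Wls in ΔC/fl (0.0222) and dm/- (0.0398) and of Wnt7b in D164A/- (0.0311) and ΔC/- (0.0167). The crossed pairing, added after seeing the data, gave 4, 1, 7 and 5 calls.

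Without each replicate in turn, calls ranged from 0 to 5 for the Wnt3a response (0 without any of the 4 D164A/fl libraries of that experiment, 5 without untreated dm/fl replicate 2), from 10 to 16 for the TGFβ response, from 0 to 2 and from 0 to 5 for the Wnt3a and TGFβ response differences from fl/fl (2 without untreated dm/fl replicate 2 of the Wnt3a experiment, 0 without TGFβ-treated fl/fl replicate 2), from 2 to 4 for that of deleted against floxed lines, from 44 to 51 for untreated mutant lines, from 17 to 23 for untreated deleted lines and from 2 to 6 between experiments (6 without untreated dm/fl replicate 2 of the Wnt3a experiment).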
